A study of Homo sapiens with 8 samples.

Results

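The arrays described here measured what 1 h of epidermal growth factor (EGF) did to the RNA of cells labelled shELL, a stable ELL knockdown derivative of HEK293, an established human embryonic kidney cell line. Members were chosen by label: 2 arrays of shELL cells given EGF at 50 ng/mL for 1 h, and 2 arrays of unstimulated shELL cells, which make 4 of the 8 arrays of the series. The other 4 arrays are control HEK293 cells, 2 given the same EGF dose for 1 h and 2 unstimulated, and they entered the fit to steady the estimate of the spread and served for the test between the lines. Total RNA was hybridised to Affymetrix Human Exon ST 1.0 arrays, which carry several short probe sets for each gene. All 4 groups grew in RPMI medium with serum, and the labels name no withdrawal of serum before EGF. Per the labels the knockdown is stable, but they do not say which hairpin was used or whether the line is 1 clone, and they call the arrays of a group biological replicates without saying how the cultures were kept apart. The p-values therefore measure only the spread between such arrays, and because the cells were measured in bulk, fewer cells of a kind and less RNA per cell cannot be told apart.

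EGF binds its receptor at the cell surface and starts the RAS, RAF, MEK and ERK kinase cascade, which reaches the nucleus within minutes. There ERK and the kinases downstream of it act on the ternary complex factors that sit with serum response factor (SRF) on CArG boxes, and on CREB at cAMP response elements, so that immediate-early genes such as EGR1 and FOS are transcribed without new protein synthesis. Some of the products are transcription factors and others are brakes on the same cascade: DUSP phosphatases that take phosphate off MAP kinases, Sprouty proteins, and ERRFI1, which blocks the receptor kinase. ELL, the gene named in the label, raises the rate of elongation by RNA polymerase II and is part of the super elongation complex.

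Promoter sequence is shown for 4 genes whose values the results turn on. Each carries a CArG box or TGACG, the core of a cAMP response element, close to its start. FOS and PTGS2 have a TATA box as well. The sequences are from RefSeq (GRCh38.p14), are written 5′ to 3′ along the strand of the gene, and have the motifs in capitals.

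EGR1 (chr5:138465329-138465432, plus strand): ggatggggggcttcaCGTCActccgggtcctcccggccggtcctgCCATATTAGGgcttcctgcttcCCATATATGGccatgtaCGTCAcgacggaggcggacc
EGR2 (chr10:62816401-62816491, minus strand, 1 of 3 promoters): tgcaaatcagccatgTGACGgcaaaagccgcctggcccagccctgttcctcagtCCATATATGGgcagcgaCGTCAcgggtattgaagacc
FOS (chr14:75278749-75278815, plus strand): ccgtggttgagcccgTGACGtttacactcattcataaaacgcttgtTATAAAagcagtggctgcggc
PTGS2 (chr1:186680435-186680496, minus strand): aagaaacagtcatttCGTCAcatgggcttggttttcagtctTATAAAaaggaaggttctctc

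In EGR1, 2 CArG boxes lie 105 to 96 and 83 to 74 bases before the start, and TGACG, the core of a cAMP response element, lies on the other strand 66 to 62 and 135 to 131 bases before it. EGR2 has 1 CArG box 71 to 62 bases before the start, between 2 copies of TGACG on opposite strands. FOS and PTGS2 hold no CArG box in the 250 bases before the start, and bases further upstream were not searched. Each has TGACG, 64 to 60 bases before the start in FOS, and 58 to 54 on the other strand in PTGS2. TATAAA follows at 33 to 28 and 32 to 27 bases. Searched on both strands of those 250 bases, TGACG, of which TGACGTCA holds a copy on each strand, was found for 11 of the 12 immediate-early factors that were higher in both EGF arrays of shELL and had a promoter in the table. It was found for 18 of 27 immediate-early factors with a promoter there, or 66.7%, and for 24.9% of all 27305 genes. The whole element TGACGTCA was found for 0 of the 12, for 2 of the 27 and for 2.03% of all genes. The CArG box was found for 3 of the 27 (EGR1, EGR2 and SRF) and for 1.44% of all genes, and TATAAA for 6 of the 27 and 13.0% of all genes. Among 18 MAPK feedback genes with a promoter, 6 held TGACG and 0 held a CArG box. These are matches of letters near annotated starts, and binding was not measured.

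The 4 arrays were unequal in brightness. The deposited 75th percentile was 2.17 and 4.65 in replicates 1 and 2 of shELL with EGF, against 3.60 and 5.16 in unstimulated shELL (log2). After quantile normalization to 1 scale, replicate 1 of shELL with EGF still stood apart. Its median correlation with the other arrays across genes was 0.814, against 0.942 for replicate 2 of the same group, and 0.910 and 0.941 for the unstimulated arrays. Between the 2 EGF arrays 4114 of 16145 genes, or 25.5%, differed by over 1 on the log2 scale, against 9.11% between the unstimulated arrays. Replicate 1 is called the dim array below. EGR1 is given with and without it and several list medians are given by array, while most other differences and counts include it. Olfactory receptor genes, which kidney cells are not known to use, set the background of a gene value at 2.62, the 95th percentile of 42 such genes.

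Of 12 markers of HEK293, 10 were above that background by the higher of the 2 shELL group means, as were 9109 of all 16145 genes. In both EGF arrays 2 lay above (LHX1 and EYA1) and 2 below (CDH2 and PAX2). These are 16.7% each, against 10.4% and 11.5% of all genes. KRT8, a keratin that HEK293 expresses, was at 5.82 and 6.29 with EGF, against 6.46 and 6.29 unstimulated, and the groups overlapped. LHX1, a homeobox factor of embryonic kidney, was at 3.49 and 2.92 with EGF and 2.74 and 2.07 unstimulated, and CDH2, N-cadherin, at 4.56 and 5.44 with EGF and 5.65 and 5.69 unstimulated. PAX2, another factor of embryonic kidney, was at 2.12 and 2.06 with EGF and 2.17 and 2.21 unstimulated, below background in all 4 arrays. Summed levels of the 12 markers were 43.9 and 45.9 with EGF and 45.1 and 46.7 unstimulated. Endothelial markers (4 measured) were below background in every array, at sums of 7.48 and 5.99 with EGF and 7.74 and 5.77 unstimulated. Leukocyte markers (6 measured) summed to 15.5 and 11.8 with EGF and 13.3 and 11.2 unstimulated, with 4 and 0 of them above background in the EGF arrays and 2 and 0 in the unstimulated ones. Fibroblast markers (10 measured) summed to 27.1 and 20.6 with EGF and 23.1 and 21.4 unstimulated, with 5 and 2 above background, against 3 and 3. Keratinocyte markers (8 measured) summed to 25.5 and 22.9 with EGF and 23.7 and 23.8 unstimulated, with 7 and 4 above background, against 5 and 4. The highest sum of the fibroblast, leukocyte and keratinocyte lists was in the dim array, and the part of these markers in the results was not tested.

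ELL itself was read first, as a check of the label. It was at 3.86 and 2.65 in shELL with EGF, against 2.93 and 2.63 in unstimulated shELL, and at 2.57 and 2.88 in control with EGF, against 2.54 and 2.50 in unstimulated control. The groups overlapped in shELL, and the high value is that of the dim array. No shELL array was below the unstimulated control arrays, so these gene values do not show the depletion that the label names. Those control arrays were themselves below the background of 2.62, where a loss cannot be read. The values therefore do not test the depletion either. The EGF difference in shELL was 0.47 (log2, 95% interval -0.45 to 1.39, limma adjusted p = 1.00).

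EGF raised EGR1 in shELL cells, and EGR1 was the single gene of 16145 that passed limma's test after Benjamini-Hochberg adjustment at 0.05 (0.00619% of genes higher, 0 lower). EGR1 is the zinc-finger transcription factor that marks ERK signalling in most cell types, and the files place its probe sets at chromosome 5, 137801491 to 137804949, in a genome build not given in the sources used here. It was at 7.14 and 7.91 with EGF, against 4.14 and 4.05 unstimulated. Both EGF arrays were far above both unstimulated ones, the dim array the lower of the pair. The means were 7.53 ± 0.54 and 4.10 ± 0.06 (log2, SD, n = 2 each), a 10.8-fold difference, or 3.43 in log2 (SE 0.33, 95% interval 2.69 to 4.17, limma adjusted p = 0.0417). Without the dim array the difference was 3.82 (limma adjusted p = 0.0133). The call held in 4 of 18 other settings, and over these the difference ran from 2.28, on the values as deposited, to 3.82, while the adjusted p ran from 0.0112 to 1.00. An exact permutation test of 2 arrays against 2 cannot go below 0.333.

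The response of EGR1 was spread over most of its length. Of 16 probe sets, 13 were higher in both EGF arrays than in both unstimulated ones, where 11.4% of all 209106 probe sets were, and 16 of 16 had a difference above 0 with a median of 3.85. The tenth from the 5′ end had 7.76 and 8.58 with EGF, against 3.11 and 2.45 unstimulated, the largest difference of the gene at 5.39. The next 3 probe sets after the first had differences of 0.09, 0.52 and 0.34, of which the one at 0.52 was bright in every array, at 10.75 and 10.38 with EGF and 9.92 and 10.18 unstimulated. Taken singly, 0 of the 209106 probe sets passed limma's test, and 5309 had an unadjusted p under 0.05, or 2.54%.

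**Figure D1:**
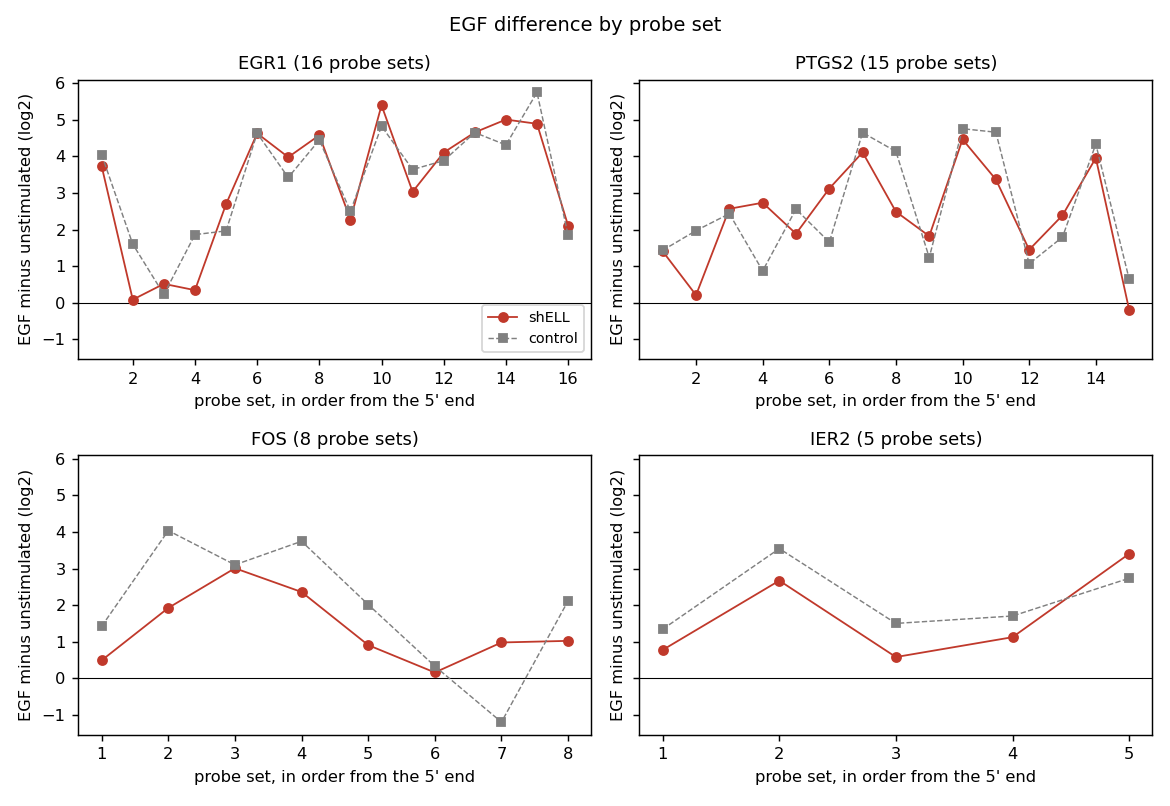
EGF minus unstimulated (log2, vertical axis) for each probe set of EGR1, PTGS2, FOS and IER2, in order from the 5′ end (horizontal axis), with shELL as circles and solid lines and control as squares and dashed lines. In EGR1 the shELL differences reach 5.39 and are near 0 at the 3 after the first, and in PTGS2 they reach 4.46 and are -0.19 at the last one.

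Below EGR1, no gene passed the adjusted test, and the values that follow describe how the arrays lay. At an unadjusted p under 0.05, 208 genes were higher with EGF (1.29%) and 190 lower (1.18%), 2.47% in all. Both EGF arrays lay above both unstimulated arrays for 1687 genes (10.4%) and below both for 1862 (11.5%). The genes of smallest p among those higher in both arrays, with a group mean above background, were EGR1, PTGS2, GPR50, IER2, GADD45B, SMAGP, FOS, ANXA2P1, DLEU1 and C12orf44 (now ATG101). In 6 of these 10 the unstimulated mean was below background. In control cells 6 of the 10 were also above in both EGF arrays, while ANXA2P1, DLEU1 and SMAGP were below, against 24.5% of all genes above and 15.7% below there.

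PTGS2, the inducible cyclooxygenase that makes prostaglandin precursors, had the next largest difference after EGR1. It was at 4.16 and 5.00 with EGF, against 2.34 and 2.0 unstimulated. Both EGF arrays were well above background and both unstimulated ones below it. The difference was 2.42 (log2, SE 0.41, 95% interval 1.48 to 3.35, limma adjusted p = 1.00). Of its 15 probe sets 11 were above in both arrays, with a median difference of 2.49.

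GPR50, an orphan receptor related to the melatonin receptors, was at 6.15 and 6.75 with EGF, against 4.63 and 4.58 unstimulated. The groups did not overlap, and 6 of 9 probe sets were above in both arrays. Its difference of 1.85 (SE 0.38) stood beside 1.91 in control cells, where it was at 7.77 and 7.17 with EGF and 5.96 and 5.17 unstimulated. On the values as deposited the shELL difference of GPR50 was 0.45.

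Of the 20 gene lists, immediate-early transcription factors and MAPK feedback genes had the largest shares of members above in both EGF arrays. Of 34 measured immediate-early factors, 1 passed the adjusted test (EGR1), 11 were higher at an unadjusted p under 0.05 and 0 lower, 16 were above in both arrays (47.1%, against 10.4% of all genes) and 1, ID3, below. The median difference of the list was 0.54, against 0.00 over all genes. By array it was 0.61 in the dim array and 0.48 in replicate 2, each set against the mean of the unstimulated arrays. On the values as deposited, where the median of all genes was -0.68, the list median was -0.17 and 3 of the 16 (CEBPB, FOSL2 and JUN) had a difference below 0, although 16 of 16 were above that all-gene median. With array median centring the list median was 0.26, the all-gene median -0.25, and JUN alone of the 16 was below 0.

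The EGR family, zinc-finger factors that bind GC-rich promoter elements, was high in 3 members. EGR2 was at 2.63 and 3.74 with EGF, against 1.84 and 2.15 unstimulated. EGR3 was at 4.23 and 3.83 with EGF, against 3.45 and 2.14 unstimulated. Both lay above in both arrays, by 1.19 (SE 0.40) and 1.24 (SE 0.47), and the unstimulated values of EGR2, and 1 of those of EGR3, were under background. EGR4 was at 3.05 and 1.96 with EGF, against 2.54 and 1.66 unstimulated, so its arrays overlapped. NAB2, a corepressor that binds EGR proteins, was at 0.94 and 2.12 with EGF, against 1.84 and 1.80 unstimulated, with the dim array the lowest of the 4.

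Several subunits of AP-1, the dimer of FOS and JUN proteins, were also above in both EGF arrays. FOS was at 2.59 and 3.07 with EGF, against 1.07 and 1.47 unstimulated, a difference of 1.56 (SE 0.37), with 3 of 8 probe sets above in both arrays. FOSB was at 3.11 and 4.69 with EGF, against 2.54 and 2.51 unstimulated. JUN was at 5.75 and 5.87 with EGF, against 4.98 and 4.80 unstimulated. None of these overlapped, and JUN was above background in all 4 arrays while FOS was below it without EGF. ATF3, a stress-inducible partner of JUN, was at 4.02 and 4.56 with EGF, against 3.29 and 2.99 unstimulated (difference 1.15, SE 0.31). JUNB was at 2.94 and 2.68 with EGF and 2.14 and 2.02 unstimulated, and FOSL2 had 3.55 and 2.99 with EGF and 2.79 and 2.43 unstimulated. These 3 also lay above in both arrays, whereas FOSL1, at 2.25 and 2.19 with EGF and 1.88 and 2.73 unstimulated, and JUND, at 2.82 and 2.93 with EGF and 2.37 and 3.12 unstimulated, overlapped.

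IER2, a short nuclear protein of the immediate-early class, was at 4.59 and 4.86 with EGF, against 3.32 and 2.40 unstimulated. Its difference of 1.86 (SE 0.42) was the largest of the list after EGR1, 2 of its 5 probe sets were above in both arrays, and the 2 unstimulated arrays were themselves unequal. KLF10, a Kruppel-like factor also induced by TGF-beta, was at 3.81 and 5.17 with EGF, against 2.96 and 3.33 unstimulated. Other Kruppel-like factors did not separate: KLF4 was at 2.92 and 1.96 with EGF and 1.73 and 2.04 unstimulated, and KLF6 at 2.77 and 2.91 with EGF and 2.86 and 3.17 unstimulated. The orphan nuclear receptor NR4A3 was at 2.95 and 2.62 with EGF, against 2.12 and 2.18 unstimulated. NR4A2, of the same family, was at 1.81 and 2.08 with EGF and 1.46 and 1.3 unstimulated, above in both arrays but below background throughout. NR4A1 was at 3.41 and 3.05 with EGF and 3.09 and 2.44 unstimulated and overlapped. MYC, the growth-promoting factor, was at 2.54 and 3.0 with EGF and 2.28 and 2.21 unstimulated. CSRNP1 and CEBPB were the remaining members above in both arrays, by 0.77 and 0.57. ID3, an inhibitor of basic helix-loop-helix factors, lay below, at 2.11 and 1.87 with EGF and 2.45 and 2.99 unstimulated, and its relative ID2 overlapped at 5.44 and 5.77 with EGF and 4.12 and 5.52 unstimulated.

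**Figure D2:**
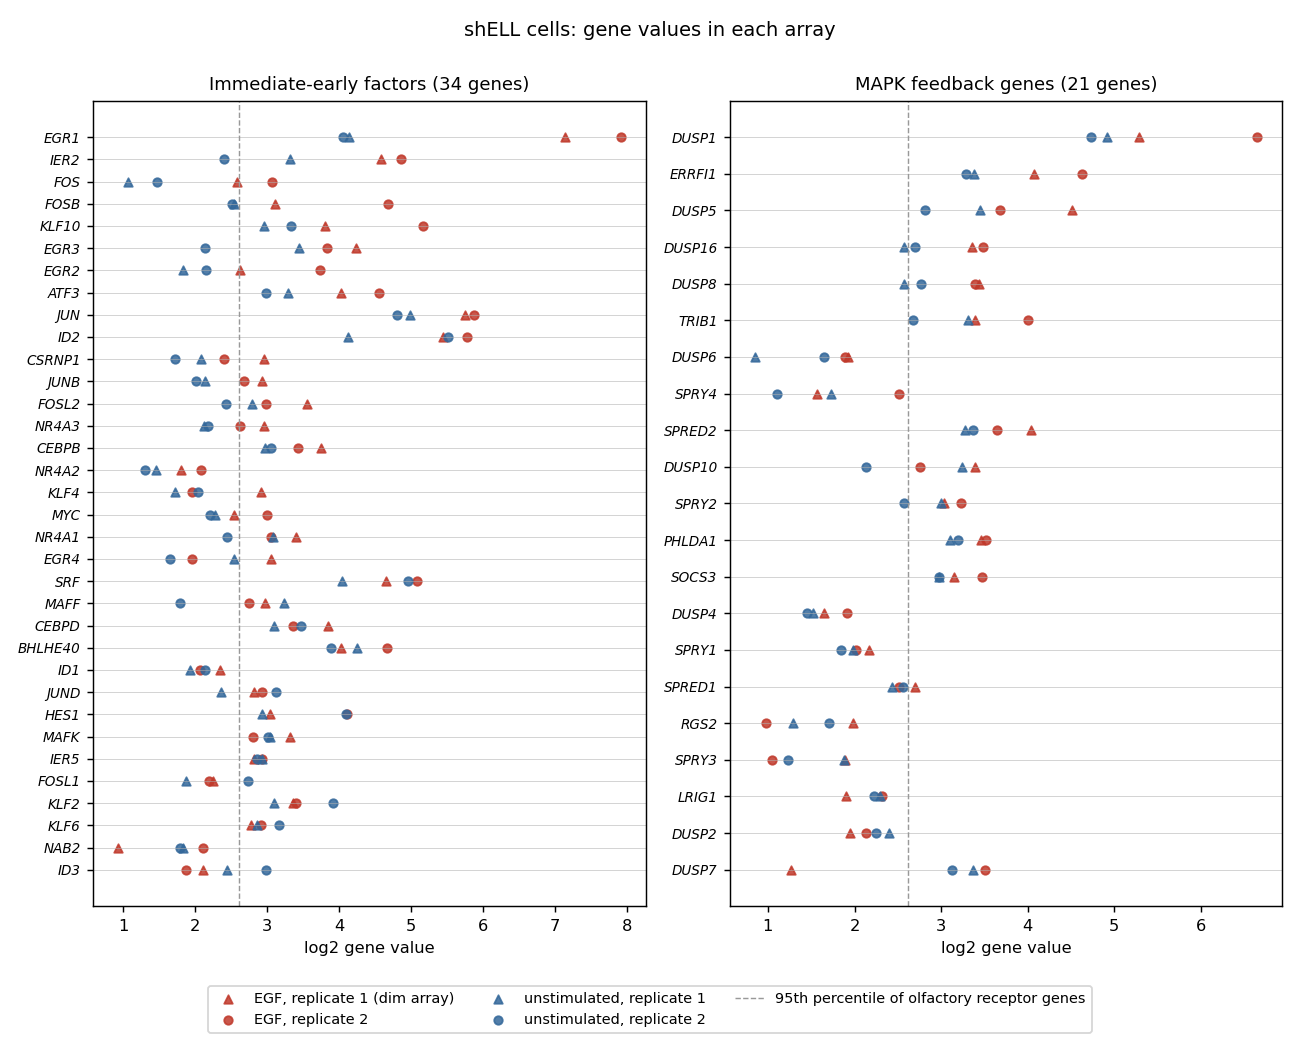
Log2 gene value (horizontal axis) in each of the 4 shELL arrays for the 34 immediate-early factors and 21 MAPK feedback genes (one row per gene), with EGF arrays and unstimulated arrays in different colours and a dashed line at the background of 2.62. EGR1 has 7.14 and 7.91 with EGF, against 4.14 and 4.05 unstimulated, the widest gap of the rows shown.

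Brakes on the MAP kinase cascade lay above with EGF in 13 of 21 measured members (61.9%, against 10.4% of all genes) and below in 1, DUSP2. None passed the adjusted test, and 5 were higher and 0 lower at an unadjusted p under 0.05. The list median was 0.35, against 0.00 over all genes, but -0.29 on the values as deposited, where 8 of the 13 were below 0 and 13 of 13 above the all-gene median. DUSP1, the nuclear phosphatase of MAP kinases, was at 5.29 and 6.65 with EGF, against 4.91 and 4.73 unstimulated. DUSP5, a nuclear phosphatase specific for ERK, was at 4.51 and 3.68 with EGF, against 3.45 and 2.82 unstimulated. ERRFI1 was at 4.08 and 4.62 with EGF, against 3.38 and 3.29 unstimulated. All 3 were above background with EGF and separate from the unstimulated arrays, by 1.15, 0.96 and 1.02.

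DUSP16 and DUSP8, phosphatases that act mainly on JNK and p38, were also above in both arrays. DUSP16 was at 3.35 and 3.49 with EGF, against 2.57 and 2.70 unstimulated, and DUSP8 at 3.44 and 3.39 with EGF, against 2.57 and 2.77 unstimulated. In control cells both overlapped. DUSP6, the cytoplasmic ERK phosphatase, was at 1.92 and 1.89 with EGF and 0.85 and 1.65 unstimulated, below background throughout. DUSP7 split the 2 EGF arrays, at 1.26 in the dim array and 3.51 in replicate 2, with 3.37 and 3.13 unstimulated. TRIB1, a pseudokinase that binds MEK, was at 3.39 and 4.0 with EGF, against 3.31 and 2.68 unstimulated, so that its groups were apart by only a little. SPRY2 was above in both arrays by 0.35, while SPRY4 was at 1.56 and 2.51 with EGF and 1.73 and 1.10 unstimulated and overlapped. The remaining members above in both arrays, SPRED2, PHLDA1, SOCS3, DUSP4 and SPRY1, had differences of 0.53, 0.34, 0.33, 0.29 and 0.18. Like DUSP6, DUSP4 and SPRY1 were below background throughout.

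Factors that speed the decay of mRNA were mixed. ZFP36 (tristetraprolin), which binds AU-rich elements, was at 4.77 and 4.27 with EGF, against 3.76 and 2.08 unstimulated. BTG2, an antiproliferative protein that recruits deadenylases, was at 6.40 and 5.96 with EGF, against 4.95 and 5.66 unstimulated. These 2 of 8 members (25%, against 10.4% of all genes) lay above in both arrays and the other 6 overlapped, and on the values as deposited BTG2 had a difference of -0.36. The list median was -0.14, at -0.53 in the dim array and 0.34 in replicate 2.

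Of 11 genes of stress and survival, 4 were above in both arrays and 1, BCL2L11, below, or 36.4% and 9.09%, against 10.4% and 11.5% of all genes. GADD45B, an activator of stress kinase signalling, was at 5.15 and 4.66 with EGF, against 3.62 and 3.65 unstimulated, a difference of 1.27 (SE 0.30). MCL1, a BCL2 relative of short half-life, was at 6.83 and 7.0 with EGF, against 6.04 and 5.93 unstimulated. PIM1, a constitutively active kinase, was at 4.57 and 4.92 with EGF, against 3.73 and 4.18 unstimulated. PPP1R15A, the stress-induced phosphatase subunit, had 3.90 and 4.19 with EGF, against 2.93 and 3.61 unstimulated. The 4 were higher in both arrays on the quantile-normalised scale, whereas on the values as deposited MCL1 and PIM1 had differences of -0.55 and -0.60, GADD45B one of 0.03 and PPP1R15A one of 0.06.

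Of 19 targets of SRF and YAP, 4 were above in both arrays and 3 below, or 21.1% and 15.8%, against 10.4% and 11.5% of all genes. The secreted matricellular proteins CTGF (now CCN2) and CYR61 (now CCN1) were among those above: CTGF was at 7.43 and 7.91 with EGF, against 6.27 and 6.48 unstimulated, and CYR61 at 5.36 and 6.75 with EGF, against 4.59 and 4.92 unstimulated. THBS1 (thrombospondin) was at 3.64 and 3.71 with EGF, against 2.38 and 3.08 unstimulated. AMOTL2 was the remaining member above, and those below were MYL9, ACTA2 and CNN1, a myosin light chain, smooth muscle actin and calponin, while the other actins and actin-binding proteins of the list, such as ACTB, VCL and FLNA, overlapped. MYL9 was at 2.01 and 2.0 with EGF, against 2.75 and 2.58 unstimulated. The list median was -0.06. On the values as deposited the difference of CTGF was -0.13 and that of CYR61 0.07.

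Upstream of the response, the receptors and kinases differed little. EGFR was at 2.72 and 2.52 with EGF, against 2.53 and 2.42 unstimulated, near background in every array. The ligands HBEGF and EREG, which bind the same receptor, were above in both arrays: HBEGF was at 4.15 and 4.03 with EGF, against 3.49 and 3.31 unstimulated, and EREG at 3.12 and 2.84 with EGF, against 1.92 and 2.63 unstimulated. TGFA, another ligand, lay below at 1.64 and 1.21 with EGF, against 2.35 and 2.20 unstimulated, all under background. Of 21 members of the cascade from SHC1 to the RSK kinases, 3 were above and 2 below in both arrays, or 14.3% and 9.52%, close to the 10.4% and 11.5% of all genes, 0 had an unadjusted p under 0.05, and the median was -0.15. Of 9 SRF and TCF partners, 1 was above and 2, YAP1 and MKL1, below, or 11.1% and 22.2%, against 10.4% and 11.5% of all genes. The member above, ELK3, was at 2.94 and 2.95 with EGF, against 2.22 and 2.35 unstimulated. On the values as deposited HBEGF and ELK3 had differences of -0.26 and -0.24. Among NF-kB and cytokine genes, PTGS2 and CXCL2 were above in both arrays, and CCL2, NFKBIA and NFKBIZ below.

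Elongation factors, the class to which ELL belongs, were above in both arrays for 3 of 23 members and below for 1, or 13.0% and 4.35%, against 10.4% and 11.5% of all genes, which is near the share of all genes for the members above. HEXIM1, which holds the elongation kinase P-TEFb inactive, was at 5.55 and 4.90 with EGF, against 4.59 and 4.42 unstimulated. WHSC2 (now NELFA), a subunit of the pausing factor NELF, was at 3.72 and 3.14 with EGF, against 2.65 and 2.75 unstimulated. Their direction turned with the scaling: HEXIM1 differed by 0.72 on the quantile-normalised scale, -0.68 on the values as deposited and -0.25 with median centring, and WHSC2 by 0.73 on the quantile-normalised scale and -0.37 as deposited. ELL2 was at 2.86 and 3.60 with EGF and 3.05 and 3.59 unstimulated, and AFF4, the scaffold of the super elongation complex, at 3.10 and 3.78 with EGF and 3.90 and 3.56 unstimulated, both overlapping.

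**Figure D3:**
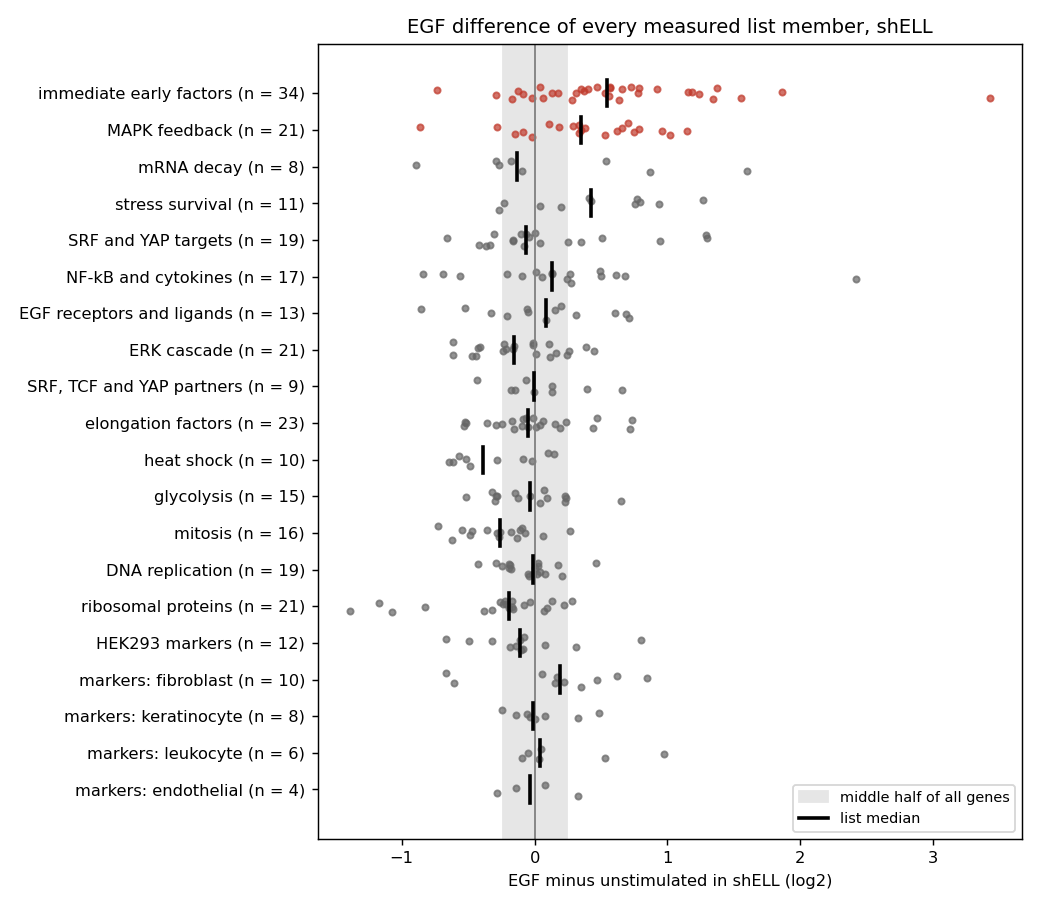
EGF minus unstimulated in shELL (log2, horizontal axis) for every measured member of each gene list (one row per list, points for genes, black bars for list medians), over a grey band for the middle of all genes. Immediate-early factors have a median of 0.54 and MAPK feedback genes one of 0.35 on the quantile-normalised scale, and -0.17 and -0.29 on the values as deposited, where that of all genes was -0.68.

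Lists of housekeeping and cell-cycle genes showed where the 2 EGF arrays parted. Ribosomal protein genes had a median difference of -0.70 in the dim array and 0.33 in replicate 2. RPL30 was at 4.28 in the dim array and 7.48 in replicate 2, with 7.05 and 7.49 unstimulated, and RPL37 at 5.65 and 9.09 with 8.14 and 8.95 unstimulated. Medians of the 2 arrays were -0.99 and 0.33 for heat shock genes, -0.62 and 0.38 for glycolysis genes, -0.66 and 0.09 for mitosis genes, and -0.49 and 0.33 for DNA replication genes. In all 5 lists the dim array lay below the unstimulated mean and replicate 2 above it, and 0 members passed the adjusted test. SLC2A3, a glucose transporter, was above in both arrays, at 5.43 and 5.74 with EGF, against 4.89 and 4.97 unstimulated, but had a difference of -0.31 on the values as deposited.

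Read array by array, the medians of the immediate-early and feedback lists lay above the unstimulated mean in both EGF arrays. The floor of the scale was also highest in the dim array. After quantile normalization the olfactory receptor genes had a median of 2.441 in the dim array and 1.284 in replicate 2, against 2.001 and 1.291 unstimulated. The part of this floor in the list values of the dim array was not tested. Replicate 2 alone was above both unstimulated arrays in 22 of 34 immediate-early factors, 16 of 21 feedback genes and 13 of 21 ribosomal protein genes, against 27.6% of all genes. The dim array alone was above both in 22, 17 and 2 of the same lists, against 41.7% of all genes. Across all 16145 genes the differences of the 2 EGF arrays from the unstimulated mean correlated at r = -0.14, as a description over genes that share 1 baseline. Set against the unstimulated array of the same number, the median of the immediate-early list was 0.59 for replicate 1 and 0.50 for replicate 2, and that of the feedback list 0.18 and 0.45.

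**Figure D4:**
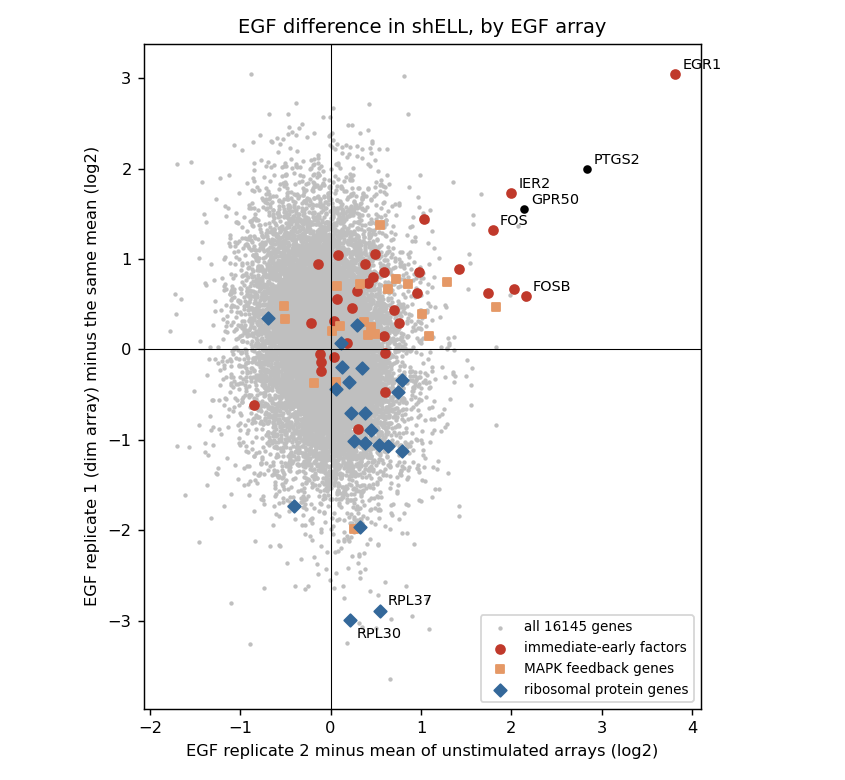
Difference of each gene from the mean of the unstimulated shELL arrays, in EGF replicate 2 (horizontal axis, log2) and in the dim EGF replicate 1 (vertical axis, log2), with all 16145 genes in grey and 3 lists in colour. EGR1 is at 3.82 and 3.04, high on both axes, and RPL30 and RPL37 are low on the vertical axis alone.

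Genes lower with EGF were chosen in the same way. By smallest p among genes below in both arrays they were SSSCA1 (now ZNRD2), POM121L1P, TLR9, RSPH10B2, C6orf162 (now SMIM8), KRTAP4-2, HOXD13, POPDC3, OTX1 and SCTR, with differences from -1.79 to -1.03. In 8 of the 10 the mean with EGF was below background, as the unstimulated mean was for 6 of the 10 higher genes. TLR9, a receptor for unmethylated DNA, was at 0.97 and 1.65 with EGF, against 3.72 and 2.48 unstimulated. The homeobox factors HOXD13 and OTX1 were at 2.32 and 2.86, and at 3.05 and 2.69, with EGF, against 4.09 and 3.55, and 4.06 and 3.80, unstimulated. POPDC3, a membrane protein of the Popeye family and above background in all 4 arrays, was at 3.58 and 4.09, against 5.13 and 4.75 unstimulated. None of the 10 passed the adjusted test, and in control cells 3 were below in both arrays and 1, C6orf162, above, where 15.7% of all genes were below and 24.5% above.

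Gene length was read over the same values, as the distance from the first to the last probe set. The 16 immediate-early factors above in both arrays spanned a median of 4.68 kb, much as the whole list did at 4.65 kb, where the longest member spanned 44.0 kb. Over all genes with a position the median was 21.9 kb, and 15% were over 100 kb. The genes higher with EGF at an unadjusted p under 0.05 had a median of 7.57 kb and those lower 15.5 kb, with 5.34% and 7.98% over 100 kb. The 10 named genes higher with EGF had a median of 4.13 kb and the 10 lower one of 2.45 kb.

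The same EGF treatment in control cells served as the nearest comparison, and it shares no array with that in shELL. EGR1 was also the 1 gene called there (0.00619%), at 7.69 and 7.57 with EGF, against 4.0 and 3.80 unstimulated, a difference of 3.73. Both arrays were above for 24.5% of all genes in control. Of the immediate-early factors 25 of 34 were above in control, and 14 were above in both lines, or 87.5% of those in shELL and 56% of those in control, where over all genes 469 were shared (2.9% of those tested), or 27.8% of those in shELL and 11.8% of those in control. Of the feedback genes 10 of 21 were above in control and 7 in both lines, or 53.8% of those in shELL and 70% of those in control. The differences of all genes in the 2 lines correlated at r = 0.27 across genes, and at -0.26 with replicate 2 as the only EGF array of shELL.

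The test of the difference between the lines called 0 genes (0%), and 280 had an unadjusted p under 0.05, of which 73 (0.452%) were higher and 207 (1.28%) lower in shELL. EGR1 differed between the lines by -0.30 (SE 0.46, 95% interval -1.35 to 0.75), so neither an equal response nor one lower by 1 on the log2 scale lies outside the interval. The EGF difference was smaller in shELL than in control for 24 of 34 immediate-early factors, with a list median of -0.22 for shELL minus control. Over all genes that median was -0.07, so the difference was smaller in shELL for most genes too. Of the 34, 1 gene, NR4A2, had an unadjusted p under 0.05 in limma's test between the lines. The EGF difference of NR4A2 was 0.57 in shELL, and 1.93 in control, where it was at 3.93 and 3.47 with EGF, against 1.93 and 1.60 unstimulated. CTGF differed by 1.29 in shELL, and by 3.36 in control, where it was at 7.01 and 7.55 with EGF and 3.35 and 4.49 unstimulated. With EGF the CTGF arrays of both lines lay between 7.01 and 7.91, and unstimulated shELL lay above unstimulated control, for an interaction of -2.07 (SE 0.59, limma adjusted p = 1.00). SPRY4 differed by 0.62 in shELL and 2.11 in control.

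The 3 genes of smallest p in each direction of that test had EGF differences of opposite sign in the 2 lines. SMAGP, a small membrane glycoprotein, was at 2.81 and 2.63 in shELL with EGF, against 1.37 and 1.64 in unstimulated shELL, and lay the other way in control, for an interaction of 2.15 (SE 0.40, limma adjusted p = 1.00). FLJ38717 had an interaction of 1.79, and C17orf37, above background in every array, of 1.65, from a difference of 0.04 in shELL beside -1.61 in control. SSSCA1 had -2.05, NUDCD2 -1.91 and HBE1 -2.26, and none passed.

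**Figure D5:**
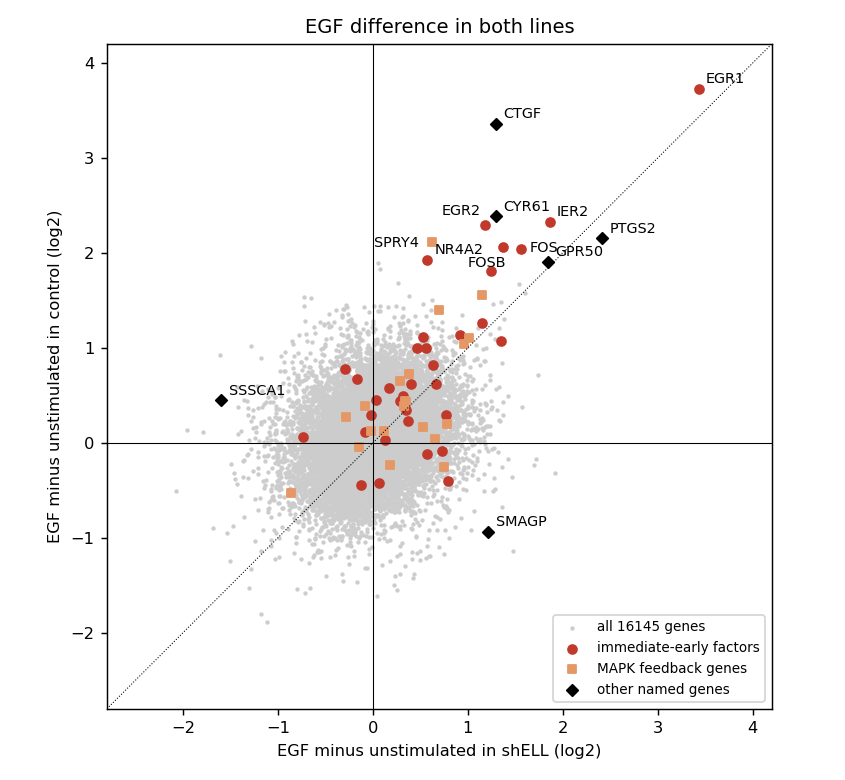
EGF minus unstimulated in shELL (horizontal axis, log2) and in control (vertical axis, log2) for all 16145 genes in grey, with immediate-early factors, MAPK feedback genes and other named genes marked. EGR1 lies apart from all others at 3.43 and 3.73, and CTGF lies at 1.29 and 3.36.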

How the data were processed

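Per the submitters' processing notes, the deposited log2 values, 1 per probe set and array for 287329 probe sets, come from RMA in Affymetrix Expression Console. No version is given in the sources used here. They are not on 1 scale between arrays, so the 8 arrays were quantile-normalised. Probe sets with 1 gene symbol (280649) and a mean at or above the 25th percentile were kept (209106), and the 16145 genes with at least 3 of them got 1 value per array by median polish (up to 10 iterations). Of their symbols 14133 are current in RefSeq, 1756 are synonyms and 256 are unmatched.

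Group means were fitted over all 8 arrays with limma 3.58.1 in R 4.3.3 (4 residual degrees of freedom, two-sided tests, Benjamini-Hochberg adjustment over all genes of each of 3 comparisons at 0.05: EGF in shELL, EGF in control, and their difference). "Above" and "below" mean that both EGF arrays lie outside the range of both unstimulated arrays. With 2 arrays a group, the number of arrays limits the precision. The authors' deposited values hold no read counts, so no depth applies.

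The members and the 20 gene lists (297 of 307 members measured) were chosen with earlier results of these data known. Genes were named by a written rule: those passing the adjusted test or, with under 5, the 10 of smallest p in each direction that lie above or below with a higher group mean over background, with ELL, EGR1 and FOS, members of the immediate-early, feedback and decay lists that lie above or below, up to 4 by smallest p of each other list, and 3 in each direction of the difference between the lines. Other members printed for contrast, and the probe sets of PTGS2 and GPR50, were chosen after their values were seen. The script was tested on simulated data. Alternatives changed the scaling, filter, summary, arrays, variance model and replicate block, and left out each array.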

Additional observations from a re-analysis of the deposited data

How the results depend on the processing

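The count of genes called for EGF in shELL (1) was 0 on the values as deposited, with array median centring, with probe sets at or above the 50th percentile, with the mean of probe sets, with only the 4 arrays of the line, with array weights and with the replicate block, and it was 1 with no filter and with an intensity trend. Leaving out 1 array gave 0 to 1, with 212 to 3565 genes at an unadjusted p under 0.05. The count was 1 only without replicate 1 of shELL with EGF (363), and 3565 is the value with that dim array alone. For EGF in control the count (1) was 0 as deposited and with median centring, 2 with array weights and 2 with the replicate block, and 0 to 1 with 1 array left out. With an intensity trend 1 probe set was called, and 0 with 1 array left out. The difference between the lines called 0 genes in every setting run. The immediate-early median (0.54) was -0.17 as deposited, 0.26 with median centring and 0.37 with no filter, and 0.48 to 0.61 with 1 array left out. That of the feedback list (0.35) was -0.29, 0.24 and, at the 50th percentile, 0.53, and 0.31 to 0.42 with 1 array left out. The all-gene median was -0.68 as deposited and -0.25 with median centring. Deviations of same-numbered arrays correlated at 0.51 between EGF and unstimulated shELL, 0.42 and 0.37 between these and unstimulated control, and -0.31 to -0.16 between control with EGF and the others, and the labels name no shared batch, so the number was not taken as a pairing. The crossed block, chosen after seeing the data, called 1 gene with 848 at an unadjusted p under 0.05. Of 2163 alternative values of 121 named genes, 2149 stayed, 14 lost a call, all of EGR1, and 85 uncalled ones changed sign, 32 of them as deposited and 16 without the dim array. Some settings leave fewer arrays or genes in the fit. Otherwise the cause was not tested. The mean of probe sets does not apply to single probe sets, and the 4 arrays of 1 line give no difference between lines. Dim genes are limited by background: from the olfactory receptor median to the 75th percentile was 1.23 in the dim array, 4.25 in replicate 2 of shELL with EGF, and 2.56 and 4.44 in unstimulated shELL.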
